A study of Homo sapiens with 8 samples.

Results

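The genes described here are the nuclear-encoded subunits and assembly factors of respiratory complex I, taken as every gene whose symbol begins with NDUF. Of the 9339 genes in the authors' deposited table, 47 met this rule, 39 named as subunits and 8 as assembly factors (NDUFAF). No pseudogene or antisense symbol had to be left out. Ribosome footprints and input RNA were sequenced from THP-1, a cultured human line of monocytic acute leukaemia cells, in 4 groups of 2 libraries: footprints and input of cells with ALKBH5 knocked down (A5-KD), and footprints and input of control cells. ALKBH5 removes the methyl group of N6-methyladenosine from RNA. The labels name no further treatment. For the control input, the genotype field says "input" and nothing else, and the title was used to place these libraries. The labels do not say how the knockdown was made, nor whether replicates were separate cultures. If they were not, the errors measure technical spread alone.

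Complex I is the first enzyme of the mitochondrial respiratory chain. Its matrix arm takes electrons from NADH and passes them through a flavin and a chain of iron-sulfur clusters to ubiquinone, and its membrane arm pumps protons. Most of its subunits are made on cytosolic ribosomes from nuclear genes and imported, while the MT-ND subunits at the heart of the membrane arm are made inside mitochondria. Assembly factors build the enzyme in stages and do not stay in it.

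A short sequence at the start of some of these genes is shown because it is tied to translation. TISU, the translation initiator of short 5′ leaders, is an element around the start codon that lets ribosomes start close to the cap, and the same letters also bind the transcription factor YY1 in DNA. Its core, AAGATGGCG, was searched in the first 50 bases after each annotated start in the RefSeq promoter table (GRCh38.p14). The motif was chosen after its occurrence in these genes had been seen. It was found on the gene's strand for 7 of the 41 NDUF genes with an entry (17.1%), against 3.70% of all 7409 measured genes with an entry. Of all 35116 windows, 0.945% held the motif on that strand, a share of windows that is not comparable with these shares of genes. On the opposite strand it stood in 0 of the 53 NDUF windows and in 0.0940% of all windows. The 7 matches are given as 30 bases each, 5′ to 3′ on the gene's strand, with the motif in capitals, and a match does not show that the element is used.

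NDUFA6, chr22:42090730-42090759, minus strand: ggatgctttggcAAGATGGCGgggagcggc
NDUFA7, chr19:8321344-8321373, minus strand: tatcgcggacggAAGATGGCGtccgccacc
NDUFA9, chr12:4649112-4649141, plus strand: ggattgtgggaaAAGATGGCGgctgccgca
NDUFAF8, chr17:81239315-81239344, plus strand: gaggacggacctAAGATGGCGgcctccagg
NDUFB8, chr10:100529837-100529866, minus strand: gtgaagaaggtgAAGATGGCGgtggccagg
NDUFS4, chr5:53560648-53560677, plus strand: tttgcctgcagcAAGATGGCGgcggtgtca
NDUFS7, chr19:1383912-1383941, plus strand: aaggccgaggccAAGATGGCGgtgctgtca

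In these 7 sequences the ATG of the motif followed 13 bases after an annotated start in NDUFA9, 17 in NDUFA7, 19 in NDUFAF8, 20 in NDUFB8 and NDUFS7, 24 in NDUFS4 and 28 in NDUFA6. For NDUFB8 this start lies inside the annotated span of the gene. The 5′ end of that span, at 100529923, is further from the ATG.

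Translational efficiency is the amount of footprints per amount of input RNA of a gene, and the readout was its change between conditions, as a log2 fold change with a standard error (SE). The authors' deposited table holds 1 comparison and 0 columns of values per library, so no value can be shown by sample, and the extent of the ALKBH5 knockdown was not analysed here. Nor does it say which condition served as reference. Every sign below is therefore the deposited sign, and "negative" does not say whether efficiency was lower or higher in the knockdown. Mean signal, the normalized signal averaged over all libraries, measures how much data lie behind a value, and levels are not compared between genes because it is not scaled by gene length. The depth of each library is unknown. All 10 monocyte markers examined had a value, with mean signals from 4.55 for ITGAM to 112772 for FCGR2A, while 0 of 5 lymphoid, 0 of 5 erythroid and 1 of 5 epithelial and fibroblast markers did (KRT8, mean signal 4.33). The signal of FCGR2A was the highest of all genes, and whether its reads come from its mRNA was not tested. ITGAM had hardly more signal than KRT8.

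No NDUF gene passed the authors' test. The authors' deposited table (riborex with its DESeq2 engine) gave an adjusted p to 19 NDUF genes, all of them subunits, and 0 were under 0.05, against 10 of 648 genes in the whole table (1.54%). At an unadjusted p under 0.05, 1 of the 47 passed, the readthrough gene NDUFC2-KCTD14, against 66 of 9339 genes (0.707%). Its value was negative, as were those of 56 of the 66 genes, or 0.6% of all 9339. Among genes with an adjusted p, which are those of higher signal, 0 of the 19 NDUF genes had an unadjusted p under 0.05, against 57 of 648 genes (8.8%). With the adjustment taken over all genes, 0 NDUF genes and 0.075% of all genes passed. Most NDUF values lay on the negative side, 36 against 11 positive ones. The median was -0.13, or a ratio of 0.912 between conditions, and the quartiles were -0.38 and -0.02. Over all genes 51.9% were negative, with a median of -0.02.

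**Figure D1:**
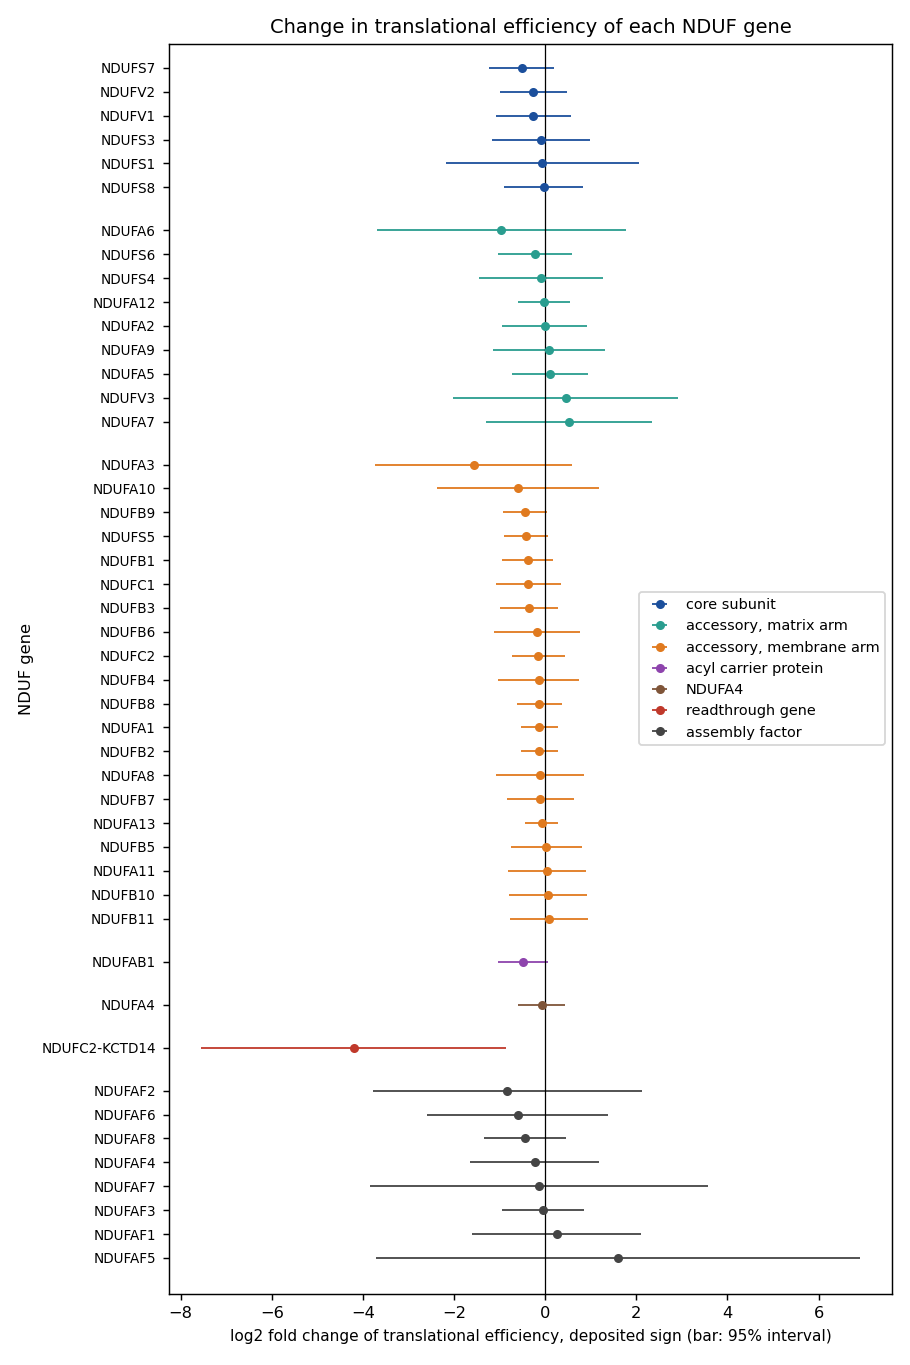
Log2 fold change of translational efficiency (horizontal axis, deposited sign) of 46 of the 47 NDUF genes, grouped by role, with bars for the 95% interval computed from the deposited standard error. The intervals of 45 plotted genes include 0, and that of NDUFC2-KCTD14, from -7.55 to -0.85, does not.

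The precision differed widely among them. The smallest change that would have reached an unadjusted p of 0.05 was 0.36 log2 units for NDUFA13, had a median of 0.86, and was 5.30 for NDUFAF5. A change of 1 log2 unit would have reached it in 29 of 39 subunits and 2 of 8 assembly factors. For 22 of the 47 genes the 95% interval lay wholly between -1 and 1, that is, within a doubling or a halving. Over the whole table this held for 658 of 9339 genes. Among genes with an adjusted p it held for 16 of the 19 NDUF genes and 525 of all 648. Each interval was read alone, and larger changes are not excluded.

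Core subunits here are the conserved, nuclear-encoded ones of the matrix arm, with its flavin, iron-sulfur clusters and ubiquinone site. All 7 had a value, with a median of -0.10. An adjusted p was given to 4 of them, and 0 were under 0.05, against 1.54% of the 648 genes that had one. NDUFS7, which holds the last iron-sulfur cluster before ubiquinone, had the most negative value, -0.52 ± 0.37 (SE; adjusted p = 0.93, riborex) at a mean signal of 167.1, in the authors' deposited table. NDUFV1, which binds NADH and the flavin, had -0.26 ± 0.42, at a mean signal of 122.8 and with no adjusted p given, in the authors' deposited table. Its neighbour NDUFV2 stood at the same value with an SE of 0.37 in the authors' deposited table. These 3 genes lay further from 0 than the other core subunits, and the interval of each included 0.

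NDUFS8, a carrier of iron-sulfur clusters, had -0.04 ± 0.44 and NDUFS3 -0.10 ± 0.55 in the authors' deposited table. NDUFS1, the largest subunit, is itself an iron-sulfur protein, and the authors' deposited table gave it -0.07 ± 1.08 at a mean signal of only 17.0. Its interval, from -2.18 to 2.05, is the widest among the core subunits.

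Accessory subunits surround the core and are needed for its assembly or stability. The 9 of the matrix arm were almost evenly split, 5 negative and 4 positive, with a median of -0.01. NDUFA12, whose place is held by NDUFAF2 during assembly, was the most precise of them, with -0.03 ± 0.29 (adjusted p = 0.999, riborex) in the authors' deposited table. Values close to 0 were also found for NDUFA2, at -0.01 ± 0.48, for NDUFS4, at -0.09 ± 0.69, and for NDUFA9, at 0.08 ± 0.63, in the authors' deposited table. NDUFS4 is a frequent site of inherited complex I deficiency, and NDUFA9 sits where the matrix and membrane arms meet.

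The positive values of the matrix arm came with large errors. In the authors' deposited table NDUFA7 had 0.53 ± 0.93 at a mean signal of 28.2, NDUFV3 0.45 ± 1.26 at 14.6, and NDUFA5 0.11 ± 0.43 at 116.3. On the negative side the authors' deposited table gave NDUFA6, a protein of the LYR family that binds the acyl carrier protein, -0.97 ± 1.39 at a mean signal of 13.4, and NDUFS6, a zinc-binding subunit, -0.23 ± 0.41. None of these differed from 0 by more than its own SE.

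Of the 20 accessory subunits of the membrane arm, 16 were negative and 4 positive. An adjusted p was given to 12 of them, and 0 were under 0.05, against 1.54% of the 648 genes that had one. The median of the 20 was -0.14, and the quartiles were -0.38 and -0.10. Set against the 200 genes nearest in mean signal, 12 lay below and 8 above the median of their neighbours, with a median difference of -0.05. For the matrix arm 3 lay below and 6 above, and the median difference turned positive, 0.08. The difference between the arms was not tested, and the membrane arm genes had a median signal of 229.8 against 53.3 for the matrix arm. NDUFB9, another LYR protein, and NDUFS5, which faces the intermembrane space, had the smallest p of the membrane arm. In the authors' deposited table NDUFB9 had -0.44 ± 0.25 (unadjusted p = 0.076, adjusted p = 0.67, riborex) at a mean signal of 419.1. The authors' deposited table gave NDUFS5 -0.43 ± 0.25 (unadjusted p = 0.084, adjusted p = 0.69, riborex) at 352.8. The ratios are 0.736 and 0.744, with upper interval bounds of 1.03 and 1.04.

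NDUFB1, NDUFC1 and NDUFB3 are small proteins that cross the membrane once. In the authors' deposited table NDUFB1 stood at -0.39 ± 0.29, NDUFC1 at -0.37 ± 0.37 and NDUFB3 at -0.36 ± 0.32, each with an adjusted p of 0.95 or more. NDUFA3 had a far more negative value, -1.57 ± 1.10 (unadjusted p = 0.15), but at a mean signal of 19.1 and with its adjusted p left empty in the authors' deposited table. NDUFA10, of the deoxyribonucleoside kinase fold, had -0.59 ± 0.91 at a mean signal of 27.2 in the authors' deposited table.

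The membrane arm genes with the 4 highest mean signals lay closer to 0 than NDUFB9 and NDUFS5, which had the next highest. NDUFA13, also known as GRIM-19, had the highest mean signal of all 47, 829.1, and stood at -0.08 ± 0.18 in the authors' deposited table, with an interval from -0.44 to 0.28. The authors' deposited table gave NDUFB2 -0.13 ± 0.20 at a mean signal of 765.6, NDUFA1 -0.13 ± 0.21 at 506.7, and NDUFB8 -0.13 ± 0.25 at 489.0. NDUFC2 had -0.15 ± 0.30 and NDUFB7 -0.10 ± 0.38 in the authors' deposited table. The 4 positive genes were all small: 0.08 ± 0.43 for NDUFB11, 0.05 ± 0.44 for NDUFB10, 0.04 ± 0.44 for NDUFA11 and 0.02 ± 0.40 for NDUFB5 in the authors' deposited table. The remaining 3, NDUFA8, NDUFB4 and NDUFB6, lay between -0.18 and -0.11.

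Outside these classes stood 3 genes. NDUFAB1, the mitochondrial acyl carrier protein, serves fatty acid and lipoate synthesis as well as complex I, and had -0.49 ± 0.28 (unadjusted p = 0.076, adjusted p = 0.67, riborex) at a mean signal of 295.2, in the authors' deposited table. NDUFA4, now assigned to cytochrome c oxidase and named COXFA4 in GRCh38.p14, had -0.08 ± 0.27 at a mean signal of 308.8 in the authors' deposited table. NDUFC2-KCTD14 is annotated as a gene of its own that spans NDUFC2 (chromosome 11, 78068297 to 78079862) and KCTD14, from 78015715 to 78079862. Its value in the authors' deposited table was -4.20 ± 1.71 (unadjusted p = 0.014), a ratio of 0.0544 with an interval from 0.00535 to 0.554, at a mean signal of 61.6 and without an adjusted p. NDUFC2 lies wholly within its span, so reads of the 2 genes can be shared, and the sources used here do not say how the counting divided them. Both values are uncertain in that respect.

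The 8 assembly factors had less signal, with a median of 29.5 against 148.1 for the 39 subunits, and none received an adjusted p or an unadjusted p under 0.05. There were 6 negative and 2 positive values among them (median -0.18), against 30 and 9 among the subunits (median -0.13). The difference between the 2 kinds was not tested, and the median SE was 0.98 for the assembly factors and 0.42 for the subunits. Only NDUFAF3 and NDUFAF8 reached a mean signal of 100. NDUFAF8, a partner of NDUFAF5 in its stability, had -0.44 ± 0.46 at a mean signal of 134.6, and NDUFAF3, which acts with NDUFAF4 on an early intermediate, -0.06 ± 0.46 at 150.7, in the authors' deposited table.

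NDUFAF4 itself had -0.23 ± 0.72 in the authors' deposited table. NDUFAF1, which joins the complex that assembles the membrane arm, had 0.25 ± 0.95, and NDUFAF2, a paralogue of NDUFA12 that holds its place during assembly, -0.83 ± 1.51 in the authors' deposited table. The authors' deposited table gave NDUFAF6 -0.61 ± 1.02. NDUFAF6 belongs to the phytoene synthase family, NDUFAF5 hydroxylates an arginine of NDUFS7, and NDUFAF7 is a protein arginine methyltransferase. The latter pair, with mean signals of 3.59 and 5.38, had 1.60 ± 2.71 and -0.14 ± 1.89 in the authors' deposited table, errors too wide to separate a large change from none. Of 17 further assembly proteins of complex I, 16 had a value, 9 negative and 7 positive, with a median of -0.05, and 0 had an unadjusted p under 0.05. LYRM2, of the LYR family, had -0.34 ± 0.56, and TMEM70, which also serves ATP synthase, 0.23 ± 0.66 in the authors' deposited table.

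The 7 genes with the TISU core held 5 negative and 2 positive values (median -0.13), and of the 34 NDUF genes with an entry but no match 27 were negative, with a median of -0.12. Over all measured genes the medians were -0.02 with and -0.02 without the motif. An unadjusted p under 0.05 was reached by 1 of the 274 genes with the motif, against 66 of all 9339 genes (0.707%). No test was made of these differences.

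The share of negative values moved with mean signal. Over the whole table the share of negative values was 50.2% among genes with a mean signal under 100 and 66.7% among those of at least 100, and 29 of the 47 NDUF genes were of the second kind. Among the 19 NDUF genes with an adjusted p, which are those with a mean signal of at least 155.3, 17 were negative, against 68.4% of all 648 such genes. The median of these 19 was -0.13 and that of the 648 was -0.12. When each gene was set against the 200 genes nearest to it in mean signal, 27 NDUF genes lay below and 20 above the median of their neighbours, and the median difference was -0.05. The neighbours of NDUF genes were negative in 59.5% of cases on average, the NDUF genes in 76.6%. The part of mean signal in the share of negative NDUF values was not tested.

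**Figure D2:**
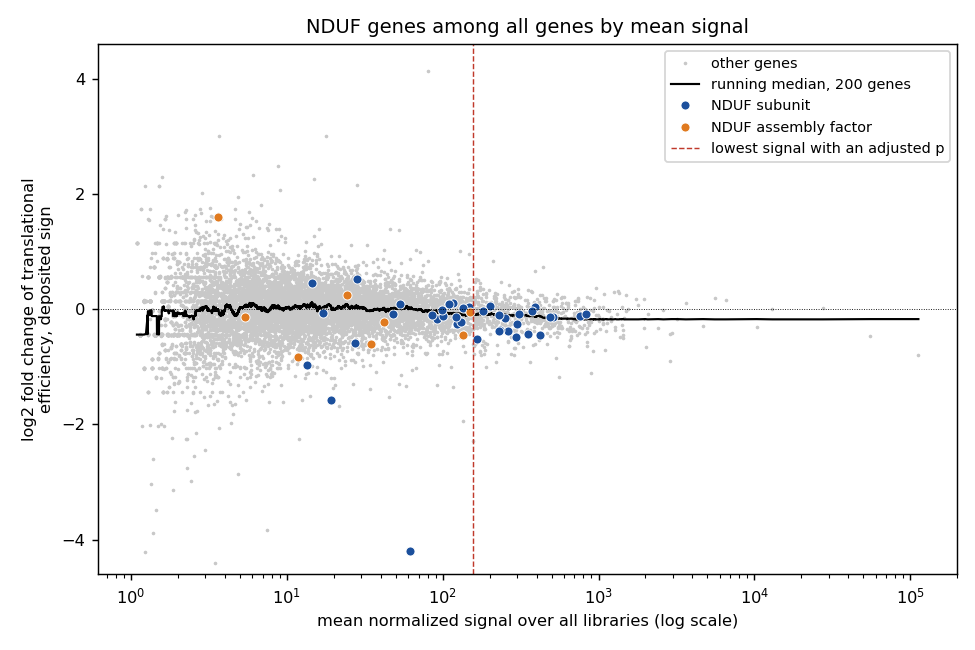
Log2 fold change of translational efficiency (vertical axis, deposited sign) against mean normalized signal (log axis) for NDUF subunits, NDUF assembly factors and all other genes, with the running median over 200 genes and the lowest signal that received an adjusted p, 155.3. Of the other genes, 3 lie beyond the plotted range, and NDUFC2-KCTD14 stands alone at -4.20.

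Lists of genes that work with complex I had medians between -0.15 and -0.04, with large errors for single genes in 2 of them. The median SE was 1.08 for iron-sulfur cluster assembly and 1.61 for mitochondrial fatty acid synthesis and lipoylation. Of 15 genes for building iron-sulfur clusters, 9 were negative, with a median of -0.04 and 0 with an unadjusted p under 0.05. HSPA9, the chaperone of cluster transfer, had 0.42 ± 0.31 and BOLA3, which helps deliver clusters, -0.60 ± 0.64 in the authors' deposited table. Of 16 measured genes of protein import, 12 were negative, with a median of -0.14 and again 0 under 0.05. TOMM5 and TOMM6, small parts of the outer membrane pore, had -0.49 ± 0.31 and -0.31 ± 0.20 in the authors' deposited table. Of 8 measured genes of mitochondrial fatty acid synthesis and lipoylation, NDUFAB1 among them, 5 were negative, with a median of -0.15, and 0 were under 0.05.

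The other respiratory complexes help to place these values. Of 40 nuclear-encoded subunits of complexes II to V, 29 were negative, with a median of -0.15, close to that of the NDUF genes. An unadjusted p under 0.05 was reached by 4 of them, all negative, and 0 passed the adjusted test (riborex). Of these 40 genes 33 had an adjusted p, and of all 648 such genes 57 reached the same unadjusted threshold (8.8%). These 4 were COX6A1, ATP5MD, ATP5ME and COX4I1, subunits of cytochrome c oxidase and ATP synthase. The mitochondrially encoded partners within complex I lay lower: all 7 MT-ND genes were negative, with a median of -0.45, and 1 was called, against 1.54% of the 648 genes with an adjusted p. This was MT-ND6, with -1.12 ± 0.16 (adjusted p = 4.7e-09, riborex) in the authors' deposited table. In the authors' deposited table MT-ND4L had -0.64 ± 0.36, MT-ND4 -0.51 ± 0.26 and MT-ND5 -0.45 ± 0.25. Their signals, from 237.3 to 894.3, were higher than those of most NDUF genes. The difference between the MT-ND and NDUF genes was not tested.

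**Figure D3:**
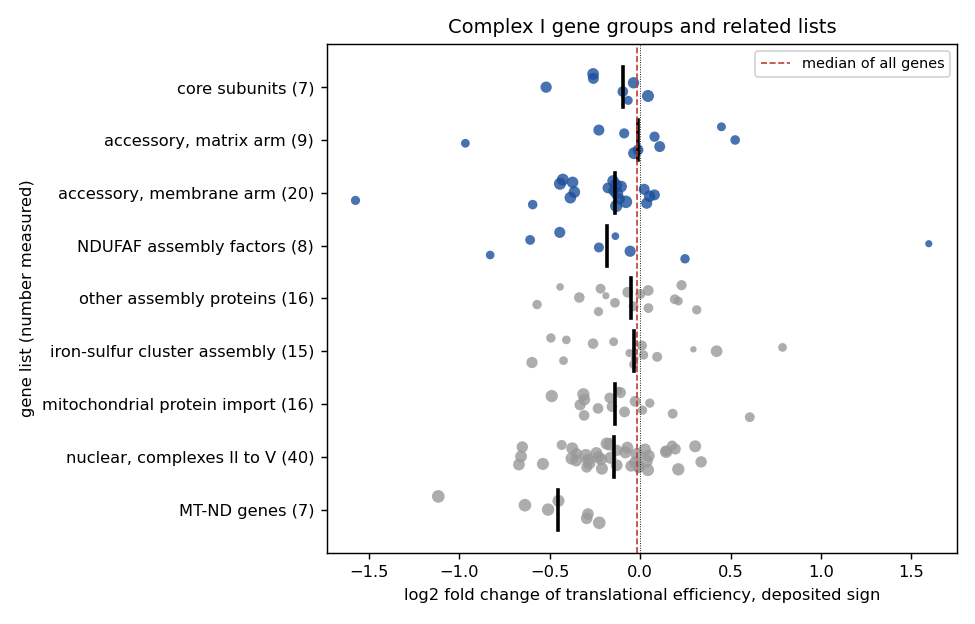
Log2 fold change of translational efficiency (horizontal axis, deposited sign) of each gene in 4 groups of NDUF genes (blue) and 5 related lists (grey), with point size rising with mean signal and black bars at list medians. The medians lie between -0.45 for the MT-ND genes and -0.01 for the matrix arm, and the dashed line marks the median of all genes, -0.02.

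Copies and neighbours limit some of the values. RefSeq (GRCh38.p14) names pseudogenes for 22 of the 47 genes, up to 12 each for NDUFA5 and NDUFB4, and 7 for NDUFS5. The 25 genes without a named pseudogene had a median of -0.10, with 20 negative. The spans of 5 genes hold a small RNA gene, such as MIR191 in NDUFAF3, and those of 15 overlap another protein-coding or long noncoding gene, such as TFPT for NDUFA3. The sources used here do not say whether the counting used strand. Of the genes with the smallest p, NDUFAB1 lies on chromosome 16 (23581014 to 23596316), NDUFS5 on chromosome 1 (39026350 to 39034615) and NDUFB9 on chromosome 8 (124539123 to 124549979). These are spans of whole genes.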

How the data were processed

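CASAVA, HISAT2 2.1.0, kallisto and the build hg38 appear in the submitters' processing notes, without a role for each. Per the labels' protocols, footprints were released with micrococcal nuclease and selected by size on a gel, with undigested lysate as input. The file's name shows that the authors used riborex with its DESeq2 engine, which tests footprints against input in a count model. Mean signal, the log2 fold change and its SE, the Wald statistic (a score), the p-value and the adjusted p-value are the authors' deposited columns per the file headers. A check showed the statistic to be the fold change over its SE, and the adjusted p to be adjusted by Benjamini-Hochberg over 648 genes. Total counts per library are not in this table, and no refit was possible.

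Computed here were 95% intervals (fold change ± a normal quantile times SE), medians, counts, and differences from the 200 genes nearest in mean signal (Python 3.11.15, numpy 2.4.6, scipy 1.17.1, pandas 2.3.3). The calling at an adjusted p, the adjustment itself and the median over neighbouring genes were checked on simulated data. Changed values there were drawn with the deposited SE, so the size of the errors was not checked. Of the 47 symbols, 46 matched RefSeq directly and 1 through an older name. The members and lists were chosen with earlier results of these data known. Values were given for members with an adjusted p, core subunits, assembly factors, the 10 of highest signal and the 5 of smallest p in each sign, except 1 member that is not reported here by name but counts in every summary. Of each other list, up to 4 genes of smallest p could be named. Genes named as examples of low signal, overlaps or values near 0 were chosen after their values were seen.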

Additional observations from a re-analysis of the deposited data

How the results depend on the processing

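The count of 0 called NDUF genes (riborex, 1 at an unadjusted p under 0.05) was also 0 when the adjustment covered all genes, and when the statistic was centred on all genes or on genes of like signal. It became 10, all negative, when the statistic was divided by its robust spread over all genes (scaled median absolute deviation, 0.280), a setting that called 357 genes in the whole table and takes the deposited errors to be too wide. The SD of the statistic was 0.434 over all genes and 1.06 over the genes with an adjusted p. An SD is sensitive to genes with large statistics, such as MT-ND6 at -6.85, and the robust spread was computed over all genes only. Whether the errors were too wide for the genes that received an adjusted p was therefore not tested. NDUFB9, NDUFAB1 and NDUFS5, among the 10, are such genes, so their calls under this setting rest on an untested assumption. The 1 gene at an unadjusted p under 0.05 became 0 with a mean signal of at least 100 or, chosen after seeing the data, without the readthrough gene. The medians of NDUF genes, subunits and assembly factors stayed negative under every filter on signal, centring and change of membership tried. They ranged from -0.13 to -0.05 for NDUF genes, from -0.13 to -0.04 for subunits and from -0.34 to -0.18 for assembly factors. Means weighted by the inverse squared SE were also negative, at -0.18, -0.18 and -0.23 in the same order. No paired analysis was possible because the table holds no values per library, and for the same reason no replicate could be left out.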
